A study of Mus musculus with 11 samples.

Results

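The mitochondrial ribosomal protein genes are the 78 genes, of 12932 in the table, whose symbols begin with Mrpl or Mrps followed by a number, with pseudogene names left out. Expression was measured by RNA-seq in alveolar macrophages (AMs) sorted from 9-week-old mice, with 1 mouse given as 1 biological replicate. The control group (mAM_WT, 4 libraries) held mature AMs (mAMs) of CD11cCre- Rxrab fl/fl mice. RXR-deficient mAMs (mAM_KO, 4 libraries) and RXR-deficient immature AMs (ImmAMs; Imm_KO, 3 libraries) both came from CD11cCre+ Rxrab fl/fl mice, in which a Cre driven by the CD11c promoter deletes the retinoid X receptor genes Rxra and Rxrb in the AMs and in any other cell that uses this promoter. All 3 groups carried both floxed alleles. No ImmAMs of control mice are among these samples, so in the comparison of ImmAMs with control mAMs the deletion and the immature state cannot be told apart. The labels give the sex of no mouse.

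The mitochondrial ribosome makes only the 13 proteins that mitochondrial DNA encodes, all of them subunits of the respiratory chain and ATP synthase. The 2 RNAs of this ribosome come from the same DNA, but every one of the proteins that build it is encoded in the nucleus, made in the cytosol and imported. AMs clear surfactant lipid from the airspace and burn fatty acids in mitochondria, and RXRs, as partners of PPARγ and other nuclear receptors, control lipid genes in these cells. By their known place, 51 of the 78 genes encode proteins of the large subunit, among them Mrps18a and Mrps30 despite their names, and 26 encode proteins of the small subunit. The remaining gene, Mrps36, encodes a protein now placed in the 2-oxoglutarate dehydrogenase complex. All 78 protein-coding Mrpl and Mrps genes of the mouse annotation GENCODE vM21 were in the table, and all 78 passed the filter of 1 CPM (count of a gene scaled to the same library total in every library) in at least 3 of the 10 libraries that were compared.

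Promoter sequence is given for the members on which the results below turn: Mrps6, the member with the largest fall in ImmAMs; Mrpl17 and Mrps26, the members lower in both RXR-deficient groups; and Mrpl52, the member that rose against control mAMs. Each line shows the 120 bases before the earlier of the RefSeq and GENCODE starts, from RefSeq on GRCm38.p6, 5′ to 3′ on the strand of the gene. Capitals mark letters that match a searched motif on either strand. The stretch of Mrps6 is chr16:92058150-92058269 (plus strand), that of Mrpl17 is chr7:105811100-105811219 (minus strand), that of Mrps26 is chr2:130563622-130563741 (plus strand) and that of Mrpl52 is chr14:54426789-54426908 (plus strand).
Mrps6: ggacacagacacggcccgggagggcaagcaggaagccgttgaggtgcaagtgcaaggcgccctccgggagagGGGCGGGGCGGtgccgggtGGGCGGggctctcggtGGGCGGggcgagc
Mrpl17: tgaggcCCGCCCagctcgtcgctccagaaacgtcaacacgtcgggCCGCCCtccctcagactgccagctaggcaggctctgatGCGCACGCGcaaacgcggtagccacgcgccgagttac
Mrps26: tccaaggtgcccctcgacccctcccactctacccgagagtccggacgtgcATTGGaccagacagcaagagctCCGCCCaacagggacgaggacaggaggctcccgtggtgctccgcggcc
Mrpl52: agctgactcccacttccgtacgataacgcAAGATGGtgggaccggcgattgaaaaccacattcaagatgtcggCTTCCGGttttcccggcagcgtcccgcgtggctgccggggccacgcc
Mrps6 held 4 copies of the SP1 motif GGGCGG, the first pair overlapping by 1 base. Mrpl17 held a copy of GCGCANGCG, the motif of NRF1, a factor known for driving nuclear genes of mitochondrial proteins, 37 bases before the start, beside 2 SP1 motifs. Mrps26 held an SP1 motif and a CCAAT motif, and Mrpl52 held the ETS motif CCGGAAG of GABPA and the YY1 motif AAGATGG.

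The same motifs were counted in 75 RefSeq promoters of 69 members, taken from 250 bases before to 50 bases after the start, without a test. CCGGAAG was in 34.7% of them, in 18.3% of the promoters of the genes in the table and in 8.86% of all 32851 promoters of the annotation. The shares were 21.3%, 13.4% and 6.25% for GCGCANGCG, and 17.3%, 7.31% and 6.34% for AAGATGG. For GGGCGG they were 52%, 61.5% and 35.7%, for CCAAT 40%, 38.4% and 37.4%, for TGACGTCA (CREB) 2.67%, 3.11% and 1.79%, and for CACGTG (E-box) 9.33%, 10.3% and 7.15%. AGGTCA, the core site that RXR and its partners bind, was in 14.7%, 12.5% and 16.3%. The same letters repeated directly with 1 base between, the DR1 element of RXR dimers, were in 0 of 75 member promoters, 4 of 11993 promoters of the table and 13 of 32851 overall. Among members with a promoter entry, AGGTCA was in 8 of the 33 that were lower in ImmAMs than in control mAMs and in 3 of the other 36, while GCGCANGCG was in 7 of 33 and 9 of 36. In the same order, CCGGAAG was in 15 and 11, AAGATGG in 4 and 9, GGGCGG in 18 and 16 and CCAAT in 13 and 14. TGACGTCA was in 1 and 1, and CACGTG in 4 and 1. None of these differences was tested. Of the 78 members, 23 (29.5%) had a start within 1000 bases of another gene's start on the opposite strand, as against 12.9% of the 11349 protein-coding genes of the table. 12 of these 23 were called lower in ImmAMs than in control mAMs, as were 24 of the other 55 and 25.3% of all genes tested. The share among all genes with such a start was not counted.

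The libraries held 16659960 to 37873532 reads assigned to genes, and the members took 25051 to 66365 reads of a library, none of them at 0 reads. Replicate 4 of mAM_KO, which the study left out of its comparison of mAM_KO with mAM_WT, stood apart from the other 3 in these genes. In it, 63 of 78 members were above the mean of the other 3 mAM_KO libraries, as were 51.05% of all genes tested. It was kept out of the fit below and is given beside the results. The alveolar macrophage marker Siglecf was at 244 to 264 CPM in control mAMs, 198 to 241 CPM in the 3 RXR-deficient mAM libraries and 19.3 to 19.7 CPM in ImmAMs. Marco, a scavenger receptor of AMs, was at 310 to 377 CPM in control mAMs, 281 to 285.5 CPM in those RXR-deficient mAM libraries and 10.9 to 13.8 CPM in ImmAMs. Both markers were thus low in the libraries labelled immature. They belong to a list of 14 AM markers, of which 10 fell and 2 rose in ImmAMs against control mAMs. Over all genes tested, 25.3% were called lower and 22.8% higher in that comparison. Rxra was at 310 to 380 CPM in control mAMs, 334 to 351 CPM in RXR-deficient mAMs (419 CPM in replicate 4) and 283 to 305 CPM in ImmAMs. Rxrb was at 51.4 to 72.1, 39.3 to 52.8 (55.3 in replicate 4) and 31.9 to 35.2 CPM. Against control mAMs, Rxrb differed by −0.37 on the log2 scale in RXR-deficient mAMs (limma p-adj = 0.0972; exact two-sided permutation p = 0.114) and by −0.82 in ImmAMs (limma p-adj = 0.000126; exact two-sided permutation p = 0.0571). With 4 against 3 libraries the exact test cannot go below 0.0571 here. These totals take in reads of all exons, also of those outside the deleted part, and so do not check the deletion.

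In control mAMs the members were expressed at moderate levels, between 7.44 and 56.5 CPM with a median of 22.3. Per kilobase of the annotated transcript, their median was 15.0 CPM, at percentile 65.1 of the genes with a length, whose median was 8.53. The order of levels per kilobase began with Mrpl33, a small protein that the large subunit shares with bacterial ribosomes, at 118 ± 7.48 (SD, n = 4). It was followed by Mrps21 at 61.6 ± 6.58, Mrps15 at 44.8 ± 5.26 and Mrpl24 at 38.4 ± 1.65 CPM per kilobase. Mrps15 and Mrpl24 did not differ beyond their SDs, the others in this order did. At the other end stood Mrpl47 at 2.82 ± 0.312, Mrps35 at 4.04 ± 0.294, Mrpl19 at 4.18 ± 0.557 and Mrpl35 at 4.88 ± 0.546 CPM per kilobase, of which the last 3 did not differ beyond their SD from a neighbour. These 4 have annotated transcripts of 3364 to 5000 bases, against a median of 1302 bases over the members, so a library that used shorter forms would be read as lower. Members varied little between control libraries: the median SD of log2 CPM was 0.13, against 0.17 over all genes tested. In RXR-deficient mAMs these values were 0.12 and 0.16, and in ImmAMs 0.15 and 0.13.

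The summed level of the 78 members was 1754, 1880, 1793 and 1906 CPM in the control libraries, 1638, 1732 and 1632 CPM in RXR-deficient mAMs and 1496, 1522 and 1549 CPM in ImmAMs. No library of one group overlapped with another group, with control mAMs highest and ImmAMs lowest, but mAM_KO replicate 4 was at 1935 CPM, above all 4 control libraries. The median member, relative to its mean in control mAMs, was at −0.16, −0.09 and −0.20 on the log2 scale in the RXR-deficient mAM libraries, and at 0.08 in replicate 4. In ImmAM libraries it was at −0.31, −0.26 and −0.28, whereas control libraries lay between −0.06 and 0.06. Large-subunit members summed to 1210 ± 50.3 (SD, n = 4), 1103 ± 40.5 (SD, n = 3) and 1013 ± 22.9 CPM (SD, n = 3) in control mAMs, RXR-deficient mAMs and ImmAMs, and small-subunit members to 604 ± 26.0, 546 ± 16.3 and 494 ± 3.07 CPM. The mean was ordered control mAMs, RXR-deficient mAMs, ImmAMs from high to low in 45 of 78 members, in the opposite order in 0, with RXR-deficient mAMs lowest in 22 and highest in 11. In these bulk samples, fewer cells of a type and less RNA per cell cannot be told apart.

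**Figure D1:**
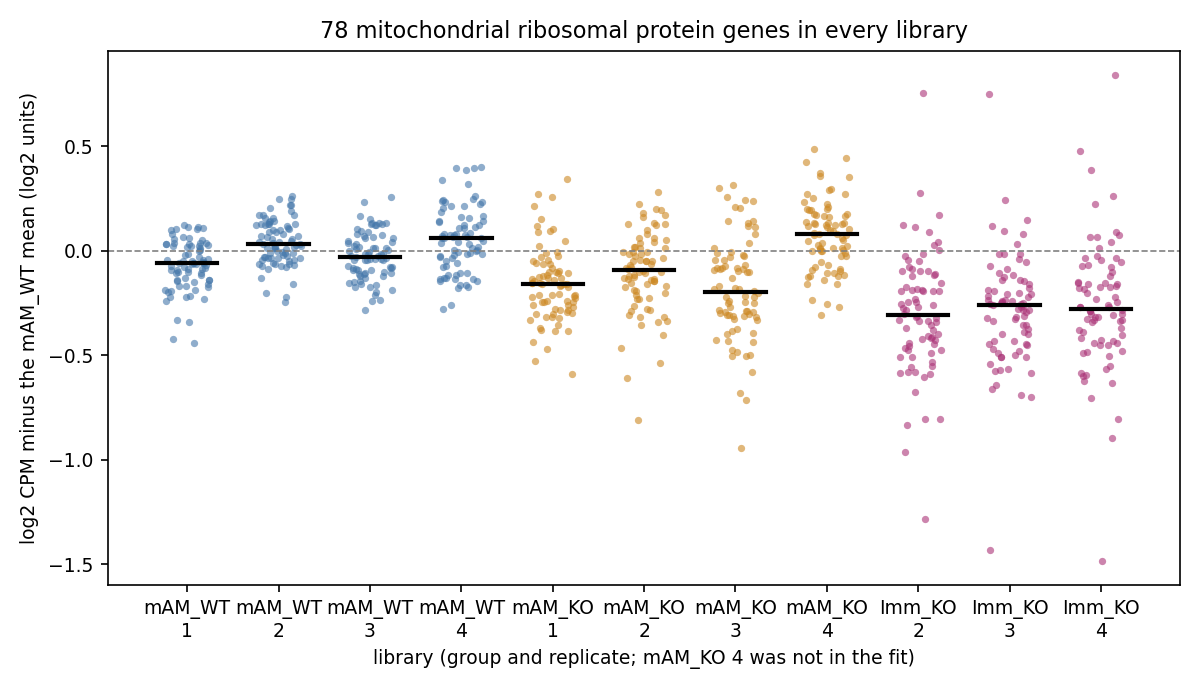
Level of each of the 78 members (points) in each of the 11 libraries, as log2 CPM minus the gene's mean log2 CPM in mAM_WT, with the median of a library as a black line. The medians of the 3 Imm_KO libraries sit between −0.31 and −0.26 and those of mAM_KO replicates 1 to 3 between −0.20 and −0.09, while mAM_KO replicate 4 is at 0.08.

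The comparison of RXR-deficient with control mAMs asks what loss of RXR changed within mature AMs. Here 2 members fell, Mrpl17 and Mrps26, and 0 rose by limma, edgeR, DESeq2 or limma-voom (0 at an unadjusted limma p under 0.05). Over all 12889 genes tested, 2.59% were called lower and 2.25% higher (limma, p-adj below 0.05), and the members' 2 of 78 was 2.56%, a share near the background. At an unadjusted p under 0.05, 11 members and 12.8% of all genes were lower. The members lay below 0 in 67 of 78 cases, with a median log2 difference of −0.14 and a range of −0.56 to 0.21, whereas 50.3% of all genes were below 0 with a median of −0.0019. In 19 members each of the 3 RXR-deficient libraries was below every control library (11.2% of all genes tested were lower in this way), and in 0 members was each above, with 8.92% of all genes. With replicate 4 the median was −0.09 and 0 members were called by limma, 2 at an unadjusted p under 0.05.

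Mrpl17 (ENSMUSG00000030879) encodes a large-subunit protein with a bacterial counterpart, on chromosome 7 from 105803206 to 105811099 (minus strand, 3 exons; GRCm38, as all positions here). It was at 36.2, 40.2, 38.3 and 40.4 CPM in control mAMs and at 30.3, 32.0 and 29.4 CPM in RXR-deficient mAMs, with 39.7 CPM in replicate 4. The 3 compared libraries were below all control libraries, while replicate 4 fell within the control range. The log2 difference was −0.34 (SE 0.08; limma p-adj = 0.0370). Adding replicate 4 ended the call (limma p-adj = 0.245). Mrps26 (ENSMUSG00000037740) encodes a small-subunit protein found only in mitochondrial ribosomes, on chromosome 2 from 130563742 to 130568695 (plus strand, 4 exons). It was at 19.0, 22.0, 20.9 and 28.2 CPM in control mAMs, at 16.1, 15.4 and 13.9 CPM in RXR-deficient mAMs and at 23.6 CPM in replicate 4, again with no overlap except for replicate 4. Its log2 difference was −0.56 (SE 0.14; limma p-adj = 0.0428), and −0.40 with all 11 libraries (limma p-adj = 0.277). Just outside the threshold lay Mrps23, another protein of the small subunit (39.2, 41.2, 41.2 and 38.8 CPM against 32.8, 35.7 and 32.4 CPM; limma p-adj = 0.0700), and Mrpl12, a stalk protein also known to bind the mitochondrial RNA polymerase (32.1 to 43.0 CPM against 27.7 to 29.4 CPM; limma p-adj = 0.0787). Replicate 4 was at 44.0 CPM for Mrps23 and 37.8 CPM for Mrpl12. Both calls were lost without mAM_WT replicate 2, 3 or 4, or without mAM_KO replicate 1 or 3 (0 members called each), and 1 of them without mAM_KO replicate 2 or any Imm_KO library (1 member called each). Without mAM_WT replicate 1, 3 members were called, Mrpl12 among them.

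ImmAMs were next compared with control mAMs, which joins the immature state to the loss of RXR, and 36 members fell and 1 rose. Mrps6, Mrpl54, Mrpl22, Mrps27, Mrpl11 and Mrps28 fell most, and Mrpl52 rose. Over all genes tested, 25.3% were called lower and 22.8% higher, against 46.2% and 1.28% of the members. 72 of 78 members lay below 0, with a median log2 difference of −0.29, with quartiles of −0.41 and −0.19, whereas over all genes 50.3% were below 0 and the median was −0.0025. In 37 members each ImmAM library was below every control library (26.4% of all genes), and in 2 members each was above (24.9% of all genes). At an unadjusted p under 0.05, 44 members were lower, with 28.5% of all genes. Without Imm_KO replicate 2 the calls dropped to 23 lower and 1 higher, and the median was −0.27.

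By subunit, 22 of 51 large-subunit members fell and 1 rose, with a median of −0.28, and 13 of 26 small-subunit members fell, with a median of −0.31. Mrps36 was the other called member (19.5, 21.5, 16.2 and 19.6 CPM against 13.7, 15.9 and 16.6 CPM; log2 difference −0.31, limma p-adj = 0.0444), with overlapping groups, and when single libraries were dropped its call held only without mAM_WT replicate 3 or Imm_KO replicate 4. By origin, 13 of 27 members shared by all ribosomes fell, 9 of 18 shared with bacterial ribosomes only, and 14 of 33 found only in mitochondria, where Mrpl52 also rose. The medians of these subsets were −0.30, −0.28 and −0.29. The differences between these subsets were not tested.

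Mrps6 (ENSMUSG00000039680), a small-subunit protein with a bacterial counterpart, lies on chromosome 16 from 92058270 to 92112227 (plus strand, 3 exons). It was at 28.6, 35.6, 31.1 and 31.7 CPM in control mAMs, at 24.3, 34.7 and 23.5 CPM in RXR-deficient mAMs (29.4 CPM in replicate 4) and at 13.0, 11.8 and 11.3 CPM in ImmAMs. Every ImmAM library was below every mAM library of either genotype. The log2 difference from control mAMs was −1.40 (95% interval −1.70 to −1.10; limma p-adj = 2.65e-06), and it was −1.17 from RXR-deficient mAMs (limma p-adj = 3.82e-05). Of the 60-base windows of its transcript, 31.4% also occur in Slc5a3, a myo-inositol transporter gene that overlaps it on the same strand, or in the readthrough gene Gm49711, so reads could be split between them. Slc5a3 itself was at 23.6 to 24.8 CPM in control mAMs and 17.9 to 19.4 CPM in ImmAMs (log2 difference −0.39, limma p-adj = 0.0582), and it was lower in ImmAMs than in RXR-deficient mAMs (−0.53, limma p-adj = 0.0243).

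The next 5 falls lay close together. Mrpl54, a large-subunit protein of mitochondria only, was at 10.2, 10.9, 10.2 and 12.8 CPM in control mAMs and 6.29, 8.05 and 6.28 CPM in ImmAMs (log2 difference −0.69, SE 0.16; limma p-adj = 0.00396). Mrpl22, which lines the exit tunnel for the new protein, was at 12.0, 13.6, 12.2 and 12.2 CPM and at 6.41, 8.42 and 9.27 CPM (−0.65, SE 0.15; limma p-adj = 0.00281), and shares 30.8% of its windows with the pseudogene Gm6997. In both genes all ImmAM libraries were below all control libraries. Mrps27, an RNA-binding protein of the small subunit, was at 14.8, 15.8, 19.5 and 15.5 CPM and at 10.9, 12.5 and 8.74 CPM (−0.62, limma p-adj = 0.0124), and its call was lost without Imm_KO replicate 4. Mrpl11, at the base of the stalk that recruits translation factors, was at 23.2, 20.8, 20.9 and 23.0 CPM and at 12.3, 14.7 and 16.0 CPM (−0.62, limma p-adj = 0.00418). Mrps28, the counterpart of bacterial protein S1, was at 7.99, 6.45, 7.53 and 7.78 CPM and at 5.57, 4.57 and 4.54 CPM (−0.61, limma p-adj = 0.0130). Again no ImmAM library reached a control library in these 3 genes. Mrpl17 followed, at 27.3, 24.8 and 25.2 CPM in ImmAMs (−0.59, limma p-adj = 6.26e-05).

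Mrpl52 was the exception among the members. This large-subunit protein of mitochondria only (ENSMUSG00000010406) is encoded on chromosome 14 from 54426909 to 54429756 (plus strand, 5 exons). It was at 11.4, 13.3, 10.6 and 17.0 CPM in control mAMs, at 10.5, 10.3 and 6.68 CPM in RXR-deficient mAMs (14.4 CPM in replicate 4) and at 21.7, 21.6 and 23.0 CPM in ImmAMs. ImmAM libraries were above all others, by 0.78 on the log2 scale against control mAMs (95% interval 0.38 to 1.19; limma p-adj = 0.00390) and by 1.298 against RXR-deficient mAMs (limma p-adj = 0.000215). No 60-base window of its transcript occurs in another gene.

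**Figure D2:**
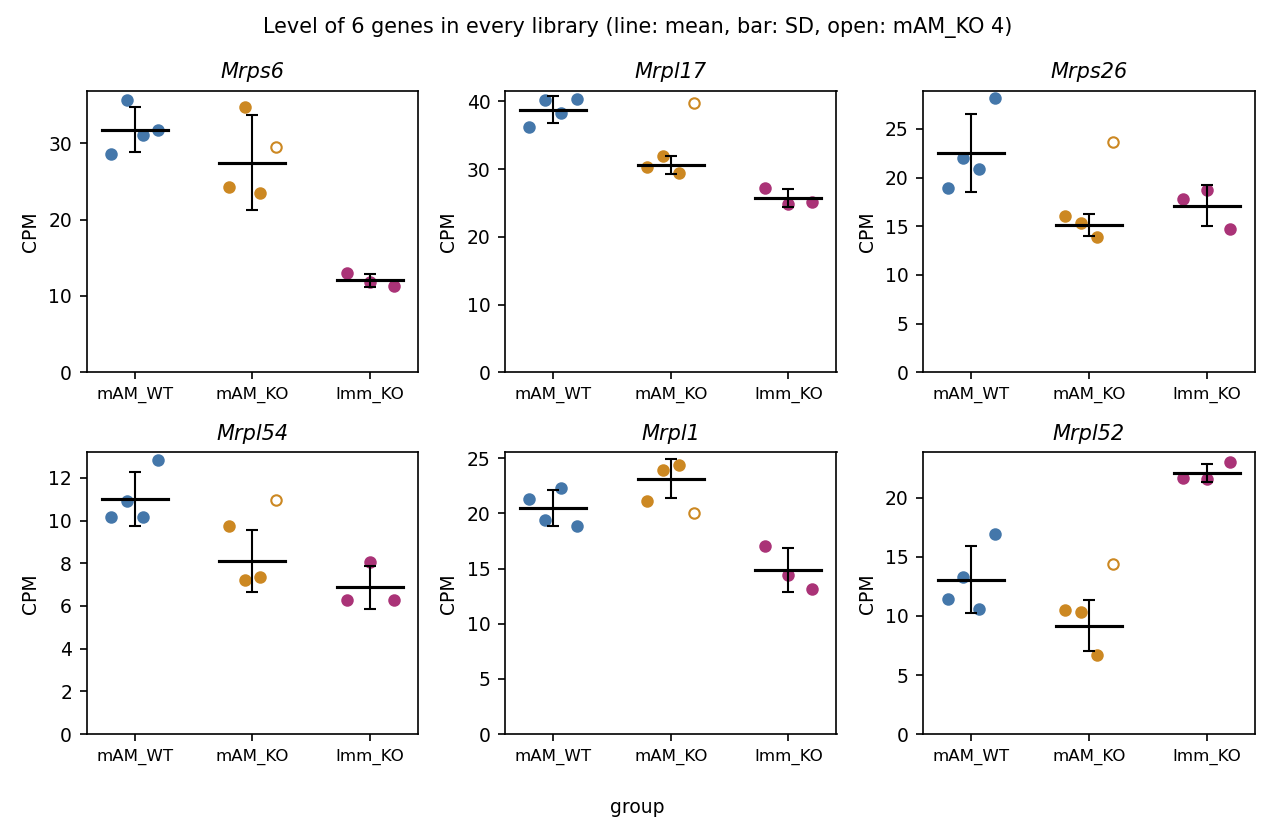
Level in CPM (vertical axis, from 0) of 6 members in mAM_WT, mAM_KO and Imm_KO libraries; points are libraries, lines the mean, bars the SD and the open point mAM_KO replicate 4, which is in neither. Imm_KO libraries lie below all mAM_WT libraries in Mrps6, Mrpl17, Mrps26, Mrpl54 and Mrpl1 and above them in Mrpl52.

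**Figure D3:**
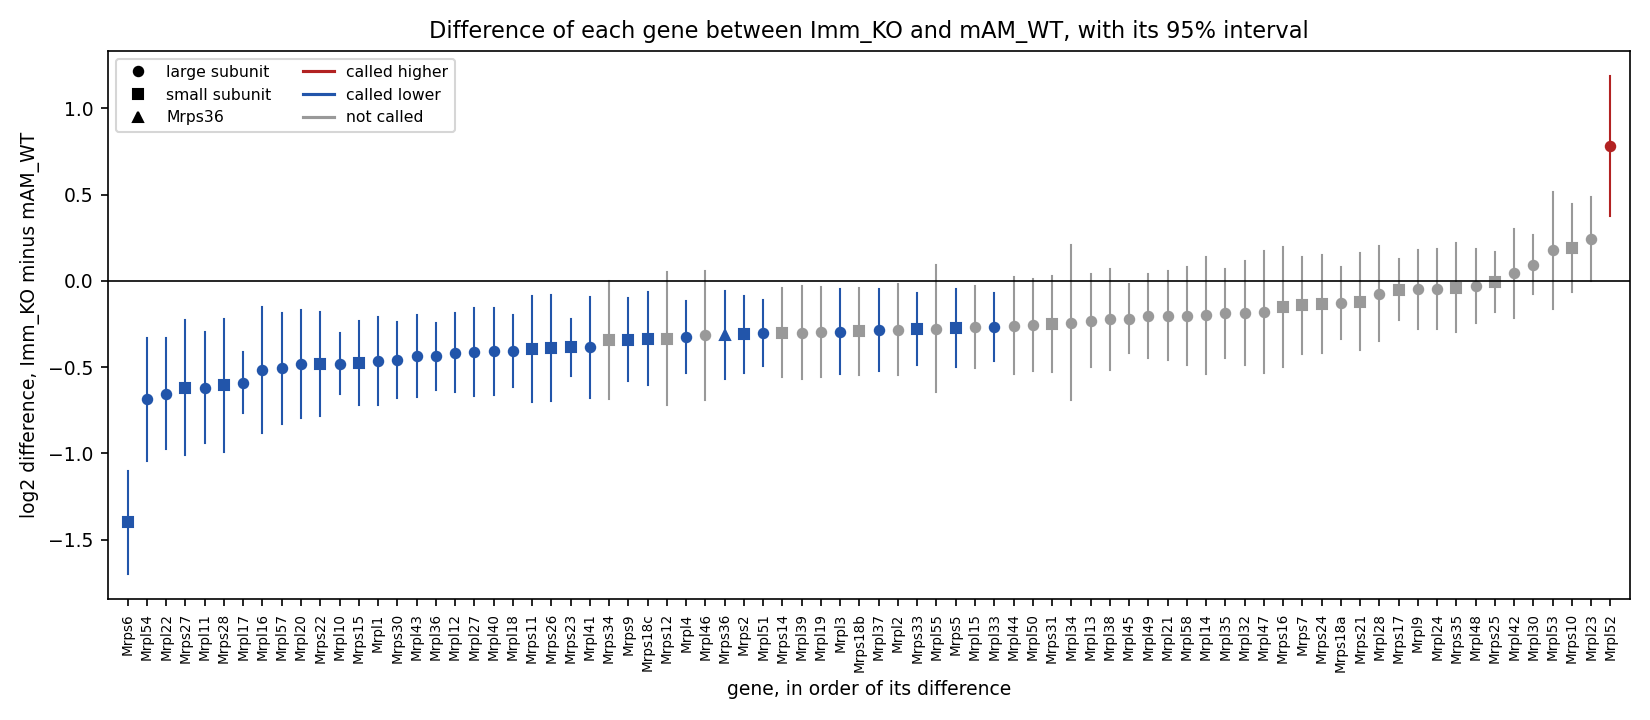
Log2 difference, Imm_KO minus mAM_WT, of each of the 78 members in order, with its 95% interval; circles are large-subunit members, squares small-subunit members and the triangle Mrps36. The 36 members called lower (blue) lie between −1.40 and −0.27, Mrpl52 (red) is the 1 called higher, at 0.78, and grey members were not called.

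Members chosen for their role or place moved in part. Of the 3 paralogues Mrps18a, Mrps18b and Mrps18c, which occupy different sites of the ribosome, Mrps18c fell (24.1, 22.0, 25.2 and 20.9 CPM to 20.1, 16.2 and 18.7 CPM; −0.34, limma p-adj = 0.0402). Mrps18b lay just outside the threshold (limma p-adj = 0.0537), as did Mrps14 (limma p-adj = 0.0517), and Mrps18a was at 22.1 ± 1.62 CPM (SD, n = 4) in control mAMs and 20.2 ± 1.13 CPM (SD, n = 3) in ImmAMs. Just inside it were Mrpl3 (limma p-adj = 0.0472) and Mrps5 (limma p-adj = 0.0461). Mrps30, a large-subunit protein, fell from 24.6 ± 2.17 to 17.9 ± 1.39 CPM (−0.46, limma p-adj = 0.00233). Mrpl12 fell from 36.8 ± 4.73 to 27.4 ± 2.21 CPM (−0.42, limma p-adj = 0.00576). Mrpl58, the built-in hydrolase that frees stalled ribosomes, was at 16.2 ± 2.51 and 14.0 ± 0.936 CPM and was not called. Of the 4 most abundant members per kilobase, Mrpl33 and Mrps15 fell (by 0.27 and 0.48 on the log2 scale; limma p-adj = 0.0271 and 0.00359), while Mrps21 and Mrpl24 were not called. None of the 4 least abundant, Mrpl47, Mrps35, Mrpl19 and Mrpl35, was called by limma. Several of these calls rested on single libraries. That of Mrpl3 was lost without mAM_WT replicate 1 or 3, mAM_KO replicate 2 or Imm_KO replicate 2 or 3, and that of Mrps5 without mAM_WT replicate 1, 2 or 3, mAM_KO replicate 3 or Imm_KO replicate 3 or 4. Mrps18c lost its call without mAM_WT replicate 1, 2 or 3 or Imm_KO replicate 3 or 4, and Mrpl33 without mAM_WT replicate 1 or 4 or Imm_KO replicate 2 or 3. Sharing of sequence was common: 34 members have at least 1 window of 60 bases found in another gene. Among the other 44, 21 fell and 1 rose, with a median of −0.31, and without Mrps6 and Mrpl52 the median of the remaining 76 was −0.29.

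ImmAMs compared with RXR-deficient mAMs, both of CD11cCre+ Rxrab fl/fl mice, differed in 12 members called lower and 2 called higher. Over all genes tested, 20.2% were called lower and 17.7% higher, against 15.4% and 2.56% of the members. 57 of 78 lay below 0, with a median of −0.16 (50.6% and −0.0053 over all genes). In 22 members every ImmAM library was below every compared mAM_KO library (26.3% of all genes), and in 5 members each was above (24.8%). At an unadjusted p under 0.05, 17 members were lower, with 24.4% of all genes. The falls were led by Mrps6 (−1.17, limma p-adj = 3.82e-05). Mrpl1, a protein of the stalk beside which spent tRNA leaves, was at 21.1, 23.9 and 24.4 CPM in RXR-deficient mAMs (20.0 CPM in replicate 4) and at 17.1, 14.4 and 13.2 CPM in ImmAMs, with all ImmAM libraries lower (−0.64, SE 0.12; limma p-adj = 0.00130). Mrpl11 (−0.57, limma p-adj = 0.0132), Mrps11, a platform protein of the small subunit (−0.54, limma p-adj = 0.0130), Mrpl22 (−0.44, limma p-adj = 0.0457) and Mrpl36 (−0.40, limma p-adj = 0.00493) came next. The call of Mrps11 was lost without mAM_KO replicate 1, that of Mrpl11 without mAM_KO replicate 1 or 2 or Imm_KO replicate 2, and that of Mrpl22 without mAM_WT replicate 1, 2 or 3, mAM_KO replicate 1 or 2 or Imm_KO replicate 2 or 3.

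Mrpl23, a large-subunit protein at the mouth of the exit tunnel, was the other member that rose between these groups. It was at 17.0, 17.1 and 16.8 CPM in RXR-deficient mAMs, 21.7 CPM in replicate 4 and 20.2, 22.5 and 24.8 CPM in ImmAMs (log2 difference 0.40, SE 0.12; limma p-adj = 0.0178). The call did not hold with replicate 4, which lay within the range of the ImmAMs, nor without Imm_KO replicate 4. 76.0% of its windows also occur in the pseudogene Mrpl23-ps1. Mrpl40 (limma p-adj = 0.0451) and Mrpl22 were just inside the threshold, and Mrps22 (limma p-adj = 0.0600) and Mrpl13 (limma p-adj = 0.0660) just outside. When single libraries were dropped, Mrpl40 kept its call only without mAM_WT replicate 4 or Imm_KO replicate 2. Without mAM_KO replicate 1, 7 members were called lower and 2 higher.

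The 3 comparisons share libraries, so their calls are not independent. The counts of shared calls that follow were not set against the same counts over all genes tested, and so are no trait of the members. 13 members lower in ImmAMs against control mAMs were called lower in another comparison too. Mrpl17 was called lower in all 3, Mrps26 in both comparisons with control mAMs, and 11 members in both comparisons of ImmAMs: Mrpl1, Mrpl10, Mrpl11, Mrpl18, Mrpl22, Mrpl36, Mrpl40, Mrps2, Mrps6, Mrps11 and Mrps30. 23 were lower only against control mAMs, and 40 members were called in no comparison. The call of Mrpl17 against RXR-deficient mAMs (−0.25, limma p-adj = 0.0416) held, among fits with 1 library dropped, only without mAM_WT replicate 1 or 4 or Imm_KO replicate 2. That of Mrps26 between ImmAMs and control mAMs (−0.39, limma p-adj = 0.0375) was lost with all 11 libraries (limma p-adj = 0.0972) and without mAM_WT replicate 2 or 4 or Imm_KO replicate 2 or 4.

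The 5 ribosomal proteins whose symbols lack the Mrp stem were also examined. In ImmAMs against control mAMs 2 of them fell, with 25.3% of all genes tested called lower. Dap3, a GTP-binding protein of the small subunit, was at 34.1, 39.3, 41.9 and 36.9 CPM in control mAMs and 24.8, 30.0 and 30.2 CPM in ImmAMs (−0.43, limma p-adj = 0.00458), and was lower than in RXR-deficient mAMs too (−0.39, limma p-adj = 0.0155), a call lost without mAM_KO replicate 2 or Imm_KO replicate 2. Aurkaip1, also of the small subunit, fell from 47.9 ± 6.48 to 36.8 ± 3.45 CPM (−0.37, limma p-adj = 0.0120), a call lost without Imm_KO replicate 2. Ptcd3, an RNA-binding protein of the small subunit, was at 33.1 ± 2.08 and 31.0 ± 2.17 CPM, Chchd1 at 14.5 ± 2.11 and 15.6 ± 1.03 CPM, and Gadd45gip1, of the large subunit, at 14.5 ± 3.13 and 11.9 ± 1.93 CPM, none of them called.

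Genes that serve the mitochondrial ribosome fell and rose in part in ImmAMs against control mAMs. Over all genes tested, 25.3% were called lower and 22.8% higher there. Lower were 12.5% of the assembly factors, 33.3% of the translation factors and 35.0% of the synthetase genes listed next. For the genes of mitochondrial transcription and the regulators the shares were 40.0% and 36.4%. These lists are short, and their shares were not tested against that of all genes. Of 24 factors that assemble the ribosome or modify its RNA, 3 fell and 1 rose: Rpusd4, which modifies the RNA of the large subunit, fell from 34.6 to 17.9 CPM (−0.95, limma p-adj = 2.65e-05), and Nsun4, which methylates the RNA of the small subunit, rose from 6.68 to 13.2 CPM (0.996, limma p-adj = 0.000259). Of 15 translation factors, 5 fell, led by the elongation factor Tsfm (15.5 to 9.75 CPM; −0.67, limma p-adj = 0.00106), and Guf1 rose (0.32, limma p-adj = 0.0377). Of 20 mitochondrial aminoacyl-tRNA synthetases and their partners, 7 fell, led by Fars2, which charges tRNA with phenylalanine (23.7 to 12.1 CPM; −0.97, limma p-adj = 3.59e-06), and 0 rose by limma (1 at an unadjusted p under 0.05, 1 by edgeR, 1 by DESeq2 and 0 by limma-voom). Of 20 genes of mitochondrial transcription, RNA processing and DNA replication, 8 fell, led by the elongation factor Tefm (−0.75, limma p-adj = 0.0102), and 2 rose, led by Polg2, a subunit of the mitochondrial DNA polymerase (0.89, limma p-adj = 0.000295). Of 11 known regulators of mitochondrial genes, 4 fell: Rxrb, the transcription factor Myc (−0.77, limma p-adj = 0.00518), the oestrogen-related receptor Esrra (−0.63, limma p-adj = 0.000463) and Rxra (−0.24, limma p-adj = 0.0141). Rxrb and Rxra are the genes targeted in these mice, and the share of 36.4% counts them, so it is no result about regulators. In RXR-deficient against control mAMs, limma called 1 gene in these lists, Mterf1b, a termination factor of mitochondrial transcription (1.39 to 0.446 CPM; −1.79, limma p-adj = 0.0428), which edgeR and limma-voom did not call. At an unadjusted p under 0.05, 5 assembly factors, 3 translation factors, 3 genes of mitochondrial transcription and 2 regulators were lower there, and 1 translation factor, 1 synthetase gene, 1 gene of mitochondrial transcription and 1 regulator were higher. Over all genes tested, 12.8% were lower in this way, and the share higher was not counted. Called lower by limma were 2.59% of all genes. DESeq2 called 2 genes of mitochondrial transcription and 2 regulators lower.

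Other groups of genes tied to the same organelle or to translation did not share 1 direction. For the counts below, the shares over all genes tested were 25.3% lower and 22.8% higher in ImmAMs against control mAMs. Against RXR-deficient mAMs they were 20.2% and 17.7%, and in RXR-deficient against control mAMs 2.59% and 2.25%. In that last comparison 12.8% of all genes were lower at an unadjusted p under 0.05, and the share higher was not counted. Of 81 nuclear genes of the respiratory chain and ATP synthase, 35 fell and 4 rose in ImmAMs against control mAMs (median −0.22), with Cox5a, a subunit of cytochrome c oxidase, at 125 and 64.0 CPM (−0.96, limma p-adj = 3.68e-07). The 13 protein-coding genes of mitochondrial DNA went the other way, with 9 called higher and all 13 above 0 (median 0.80), led by mt-Atp8, of the ATP synthase (198 to 467 CPM; 1.25, limma p-adj = 2.18e-05). Their summed level was 15530 to 24480 CPM in control mAMs, 26390 to 29630 CPM in RXR-deficient mAMs and 29490 to 35310 CPM in ImmAMs. In mAM_KO replicate 4 it was 17780 CPM, within the control range. In RXR-deficient against control mAMs 12 of the 13 were above 0, 10 at an unadjusted p under 0.05, with 0 called by limma, edgeR or limma-voom and 6 higher by DESeq2. Of the 2 mitochondrial ribosomal RNAs, 0 were called by limma, edgeR, DESeq2 or limma-voom in ImmAMs against control mAMs (0 at an unadjusted p under 0.05). Their summed level was 423 to 598 CPM in control mAMs, 677 to 730 CPM in RXR-deficient mAMs (558 CPM in replicate 4, within the control range) and 467 to 625 CPM in ImmAMs. Between RXR-deficient and control mAMs, both were higher at an unadjusted p under 0.05, with 0 called by limma or edgeR, 1 by limma-voom and 2 by DESeq2. The small-subunit RNA mt-Rnr1 fell in ImmAMs against RXR-deficient mAMs (137 to 82.9 CPM; −0.72, limma p-adj = 0.000885). The 79 cytosolic ribosomal proteins, which build the other ribosome of the cell, rose in 72 cases, with all 79 above 0 (median 0.52), and in 78 cases against RXR-deficient mAMs. The largest rise was that of Rpl13 (293 to 611 CPM; 1.10, limma p-adj = 0.000235). In RXR-deficient against control mAMs 73 of the 79 were below 0, 38 at an unadjusted p under 0.05, with 0 called by limma, edgeR or limma-voom and 19 lower by DESeq2. The libraries' summed level of cytosolic ribosomal proteins was 31180 to 32870 CPM in ImmAMs and 20270 to 25580 CPM in control mAMs. These lists were chosen with earlier results known, and the difference between lists was not tested.

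**Figure D4:**
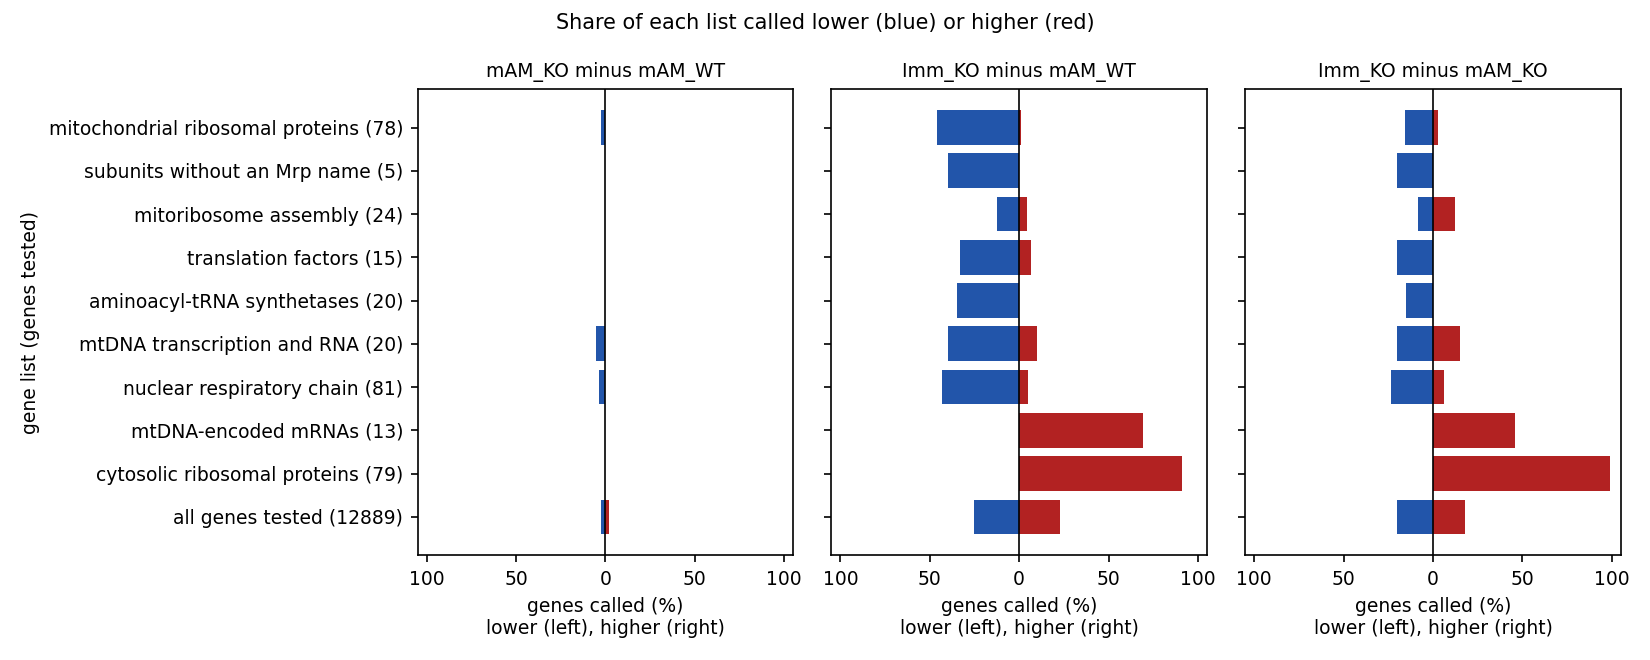
Share of genes called lower (blue, to the left) and higher (red, to the right), in percent of the genes tested, for the members, 8 lists of related genes and all 12889 genes, in the 3 comparisons. In Imm_KO minus mAM_WT 46.2% of the members are called lower and 1.28% higher, and 91.1% of the cytosolic ribosomal proteins are called higher.

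Other markers moved with the same groups. Over all genes tested, limma called 25.3% lower and 22.8% higher in ImmAMs against control mAMs. In RXR-deficient against control mAMs it called 2.59% lower and 2.25% higher. Of 13 listed markers of monocytes and interstitial macrophages, 9 were in the table and tested. Of these 9, 7 rose and 1 fell in ImmAMs against control mAMs. Their summed level was 118 to 153 CPM in control mAMs, 134.5 to 170 CPM in RXR-deficient mAMs and 570 to 597 CPM in ImmAMs. The complement gene C1qa, which is on this list, was at 0.0132 to 0.0737 CPM in control mAMs, which is 0 or 1 read in a library, and at 24.5 to 29.8 CPM in ImmAMs. In RXR-deficient mAMs C1qa averaged 0.188 CPM and C1qb, also listed, 0.146 CPM. Both passed the filter of 1 CPM only through the ImmAM libraries, so the filter fixed their rise in advance. Of 14 AM markers, 10 fell and 2 rose, with summed levels of 24710 to 31210 CPM in control mAMs and 26950 to 28850 CPM in ImmAMs. Krt79 had the largest called fall, from 671 to 6.54 CPM (−6.68, limma p-adj = 1.55e-09). Chil3 had the largest called rise, from 16160 to 21170 CPM (0.40, limma p-adj = 0.0273), and weighs heavily in these sums. In RXR-deficient mAMs 3 AM markers and 3 of 24 proliferation genes fell and 2 markers of monocytes and interstitial macrophages rose against control mAMs by limma. Of the latter list, edgeR and DESeq2 called 3 higher each and limma-voom 0. Its largest called rise, that of Cx3cr1, was at a low level with a wide spread (0.845 ± 0.245 to 4.84 ± 3.42 CPM, SD). In ImmAMs against control mAMs, all 24 proliferation genes tested fell, led by the cyclin gene Ccnb2 (20.4 to 0.616 CPM), with summed levels of 977 to 1210 CPM in control mAMs, 808 to 989 CPM in RXR-deficient mAMs and 271 to 289 CPM in ImmAMs. Neutrophil markers (4 of 8 in the table) summed to 6.38 to 11.2 CPM in control mAMs and 18.0 to 25.8 CPM in ImmAMs, and dendritic cell markers (2 of 6) to 5.40 to 7.24 and 20.7 to 24.1 CPM. B cell (1 of 4) and erythroid (2 of 3) markers had 0 calls by limma, edgeR or limma-voom in either comparison with control mAMs, though the haemoglobin gene Hbb-bs was lower at an unadjusted p under 0.05 in RXR-deficient mAMs and DESeq2 called 1 erythroid gene lower in each, and of 6 T cell and 5 alveolar type 2 cell markers 0 were in the table. The part of these cell states and cell types in the lower level of the mitochondrial ribosomal proteins was not tested.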

How the data were processed

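RNA was sequenced from 11 libraries of sorted AMs. Per the labels and the submitters' processing notes, reads were trimmed with cutadapt, quantified with RSEM 1.3.1 on GRCm38 and scaled for limma. The deposited table holds CPM on TMM-scaled library sizes for 12932 genes, with 0.5 reads added to each count by the authors, and these CPM values gave back whole reads for 100% of entries within 0.01. From these CPM, 3 group means were fitted to log2 values of 10 libraries with limma 3.58.1 (R 4.3.3; eBayes with a variance trend; Benjamini-Hochberg over 12889 genes with at least 1 CPM in 3 libraries; threshold 0.05). mAM_KO replicate 4 was left out, as in the study. As alternatives, the recovered reads were tested with edgeR 4.0.16, limma-voom and DESeq2 1.42.0, and edgeR called 2, 34 and 12 members in the 3 comparisons. Windows of 60 bases of each member's transcript were searched in the other transcripts of GENCODE vM21, which held 12919 of the genes.

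Named are the 6 largest called rises and falls without overlap in each comparison, the 4 highest and lowest levels per kilobase, members with an unusual place or role, subunits with other names, the 2 members nearest the threshold on each side, and the called extremes of other lists. The members and lists were chosen with earlier results of these data known. RSEM can split reads between genes that share sequence. A limma p-value sets a difference against the spread between libraries, estimated over the 3 groups together, with 1 mouse given as 1 replicate. Whether mAM_KO and Imm_KO libraries of the same number came from the same mouse is not known here.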

Additional observations from a re-analysis of the deposited data

Results flagged for a closer look

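The search covered 86 groups of 4 libraries, made of the named genes and the summed levels of the members and of each subunit, in mAM_WT and in mAM_KO. Of these groups, 2 held a library far from the other 3, where chance alone flags about 1 in 20 groups. Mrpl22 was at 13.57 CPM in mAM_WT replicate 2, the highest of 4, with a gap of 0.866 of the range. Mrpl23 was at 21.74 CPM in mAM_KO replicate 4, the highest of 4, with a gap of 0.942 of the range. That library, which stood outside the fit, also held a higher median of the members: 0.08083 on the log2 scale relative to the mAM_WT mean, above the 4 control libraries.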

How the results depend on the processing

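The count of members that differed between RXR-deficient and control mAMs depended on the setting. Against 2 in the fit reported, it was 0 with all 11 libraries, 0 with only the 2 groups compared, 0 without a variance trend, 0 with the replicate block, 1 without the TMM factor, 1 by limma-voom and 5 by DESeq2, and 0 to 3 when a library was left out. Between ImmAMs and control mAMs the count of 37 went to 24 to 36 when a library was left out. Between ImmAMs and RXR-deficient mAMs the count of 14 went to 8 with the replicate block and to 9 to 15 when a library was left out. The causes were not tested. Of the members called, 18 and 6 in these 2 comparisons were called under every setting run, and 0 in the first. No called member changed sign under a setting, and the median log2 difference stayed below 0 in each. Of 1080 values of named genes under an alternative, 912 kept their side of the threshold, 150 lost it and 18 gained it. Replicate numbers are shared between groups, but the deviations of same-numbered libraries correlated at −0.127 to 0.261, so the numbers were not taken as a pairing; the block gave 0, 30 and 8 calls. Depth limits the low members most: the fewest reads of a member in a library were 81, of Mrps28 in mAM_KO replicate 3, and counting error was not separated from the spread between mice. mAM_KO replicate 1 and Imm_KO replicate 2 moved a count of ImmAM calls by over 1.5 times.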
